A study of Mus musculus with 27 samples.

Results

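The genes of the mitochondrial respiratory chain are described here across 10 days of differentiation of mouse embryonic stem cells, with and without an shRNA against Sox17. They were chosen by a rule on the gene symbol, set with earlier results of these data known. The symbol had to start with Nduf, Sdh followed by a to d, Uqcr, Cox4 to Cox8, or Atp5. Every such gene with a probe set of its own was taken. Each was read through the probe set with the highest mean over all 27 arrays. Ndufa11 and Ndufs6 of complex I had only probe sets shared with another symbol and were left out. The rule found 94 of the 18194 genes that had a probe set of their own. Of these, 92 passed the filter on low values, among 13297 genes tested. By symbol they comprised 35 genes of complex I (among them Ndufa4, now known as a subunit of complex IV), 4 of complex II, 8 of complex III, 15 of complex IV, 17 of complex V, and 13 that the rule also takes in, which are assembly factors (Ndufaf1 to Ndufaf8 and Sdhaf1 to Sdhaf4) and Cox7a2l, a supercomplex factor. Ndufb4 of complex I, with log2 values of 4.01 to 4.61, and Cox7b2 of complex IV, at 3.17 to 3.56, did not pass and were not tested. Other Ndufb4 probe sets, shared with Ndufb4b and Ndufb4c, were left out, so its low values hold for this probe set only.

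AB2.2 mouse embryonic stem cells had been given a lentiviral vector that carries enhanced green fluorescent protein together with an shRNA, and cells with the fluorescent protein were collected by flow sorting. In the control arm the shRNA was against firefly luciferase, a gene the cells do not have, and in the other arm it was against Sox17, an endoderm transcription factor. Both arms thus carried a vector, an shRNA and the fluorescent protein, and both were grown as embryoid bodies in hanging drops and plated after 4.5 days. Total RNA was hybridised to Affymetrix arrays on 7 days (0, 2, 4, 5, 6, then 8 and lastly 10), with 2 arrays per arm and day, except that 1 array stands for the Sox17 shRNA arm at day 0. That gives 14 control and 13 Sox17 shRNA arrays in 14 groups. Embryoid bodies hold many cell types at once, so fewer cells of a type and less RNA per cell cannot be told apart in these values. Nothing in the labels says that replicates came from separately transduced cells, so p-values measure only the spread between these arrays. That spread was taken as the same for all groups, though the groups were not equally variable. Array weights, lower where arrays vary more, were 0.252 to 0.798 for Sox17 shRNA days 4 to 10. For control days 4 to 10 they were 0.455 to 5.285.

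Sox17 itself was followed by 2 probe sets. With the dimmer one, its log2 value in the control arm went from 5.28 at day 0 to between 9.41 and 9.43 at day 4 and between 8.46 and 8.52 at day 10. In the Sox17 shRNA arm it was 5.82 and 7.82 at day 4 and 5.68 to 6.23 at day 10. The arms did not overlap at days 2, 4, 5, 8 and 10, while at day 6 the ranges touched, at 7.16 to 7.66 against 7.66 to 8.07. All 20 heart muscle marker genes tested (such as Myh6 and Tnnt2) rose by day 10 in the control arm, by a median of 3.77. Over days 4 to 10 all 20 averaged lower with the Sox17 shRNA, and the median of these genes on an array was 9.47 to 10.56 on control arrays of days 8 and 10 against 6.21 to 6.93 on Sox17 shRNA arrays. A hybridisation spike-in, bioB, was high (8.86 to 9.37) on 9 arrays, those of days 0 and 2 and replicate 1 of day 4 in both arms, and 6.19 to 7.67 on the other 18. Comparisons with day 0 therefore cross this difference between arrays, and values within arrays of like spike-in signal are given beside them. The difference between the arms within a day crosses it only at day 4, where each arm has 1 array of either kind.

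The respiratory chain carries electrons from NADH (complex I) and succinate (complex II) through complex III and cytochrome c to oxygen (complex IV), and the proton gradient this builds drives ATP synthesis by complex V. Complex IV exchanges some of its nuclear-encoded subunits by tissue: Cox6a2, Cox7a1 and Cox8b are the forms of heart and skeletal muscle, and Cox6a1, Cox7a2 and Cox8a their counterparts in most other tissues. Adult heart muscle is rich in mitochondria, whereas pluripotent cells are known to rely strongly on glycolysis.

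Promoter sequences are shown first for a muscle isoform and its widespread partner, for another widespread isoform, and for the 2 complex I genes that differed most between the arms. They are the 250 bases before the annotated start in RefSeq's GRCm38.p6 table, read 5′ to 3′ in the direction of the gene. Capitals mark a match, on either strand, to a motif of NRF1, ETS factors, ERR, YY1, GATA factors or MEF2, of which all but the MEF2 motif are spelled out beside their counts. The windows are chr7:30183921-30184170 (+) for Cox7a1, chr9:79759854-79760103 (-) for Cox7a2, chr5:115348959-115349208 (-) for Cox6a1, chr6:24527691-24527940 (-) for Ndufa5 and chr6:39592315-39592564 (+) for Ndufb2.
Cox7a1: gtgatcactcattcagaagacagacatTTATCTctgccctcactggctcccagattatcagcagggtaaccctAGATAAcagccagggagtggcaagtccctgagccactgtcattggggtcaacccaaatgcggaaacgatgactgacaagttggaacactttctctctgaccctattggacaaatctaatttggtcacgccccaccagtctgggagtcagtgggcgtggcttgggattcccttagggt
Cox7a2: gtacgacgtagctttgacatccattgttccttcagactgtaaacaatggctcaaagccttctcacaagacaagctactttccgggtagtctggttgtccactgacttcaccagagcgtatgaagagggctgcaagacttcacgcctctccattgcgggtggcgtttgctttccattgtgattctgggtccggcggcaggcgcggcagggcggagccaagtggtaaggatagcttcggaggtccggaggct
Cox6a1: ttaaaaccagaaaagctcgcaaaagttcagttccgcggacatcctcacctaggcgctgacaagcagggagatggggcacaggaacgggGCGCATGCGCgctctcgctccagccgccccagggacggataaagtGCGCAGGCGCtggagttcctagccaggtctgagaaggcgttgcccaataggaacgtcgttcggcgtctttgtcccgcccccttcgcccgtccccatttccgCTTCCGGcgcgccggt
Ndufa5: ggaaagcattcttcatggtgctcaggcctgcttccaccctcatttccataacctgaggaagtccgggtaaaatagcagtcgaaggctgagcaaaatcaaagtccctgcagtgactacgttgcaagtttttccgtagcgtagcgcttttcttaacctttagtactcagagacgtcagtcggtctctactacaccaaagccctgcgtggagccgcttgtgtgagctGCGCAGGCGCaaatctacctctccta
Ndufb2: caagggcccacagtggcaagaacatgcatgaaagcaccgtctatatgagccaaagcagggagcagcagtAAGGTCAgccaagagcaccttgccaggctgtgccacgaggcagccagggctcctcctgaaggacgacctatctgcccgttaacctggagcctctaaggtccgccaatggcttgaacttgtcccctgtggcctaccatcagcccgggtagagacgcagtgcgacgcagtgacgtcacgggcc
Cox7a1 had 2 GATA matches and Cox7a2 none of these motifs. Cox6a1 had 2 NRF1 matches and 1 ETS match, Ndufa5 had 1 NRF1 match in this window and Ndufb2 had 1 ERR match. Of the 92 genes, 76 had a promoter in the table, and Cox6a2 is not among them. Among these 76, 11 held the NRF1 motif, which is GCGCA, any base, then GCGC. That is 14.5% against 8.62% of the promoters of all 10674 genes tested that the table lists. The ETS motif, CCGGAAG, stood in 16 of these genes, or 21.1% against 14.5%. NRF1 and the ETS factor GABP are known regulators of respiratory chain genes. The motif of the estrogen-related receptors (ERR), AAGGTCA, stood in 4 genes (5.26% against 3.64%). That of YY1, ATGGCGGC, was found in 2 of the promoters (2.63% against 2.06%). The GATA motif, AGATAA, occurred in 6 (7.90% against 7.23%). The MEF2 motif was in 0, against 1.86%. The E-box CANNTG, not set in capitals, was in 49 (64.5% against 62.5%). No motif holds another in full. A match says only that these letters are there.

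In control cells more respiratory chain genes fell than rose over the 10 days in which the heart muscle genes rose. At day 10, 49 of the 92 were lower than at day 0 and 6 were higher, by limma with Benjamini-Hochberg adjustment over all 13297 genes at an adjusted p of 0.05. Of all genes tested, 40% were lower and 31.5% higher in the same comparison, so the share of these genes called lower was somewhat above that background and the share called higher far under it. Their median difference was -0.28 on the log2 scale against -0.13 for all genes, and 76 of the 92 differences were negative. In 9 genes the level was at least 2-fold lower, and in 0 was it at least 2-fold higher. The share of all genes at this cut-off is not given here, so these counts are only a description. The count of higher genes was not firm: it was 3 without replicate 2 of control day 10 and with a term for the spike-in class described above, 12 with array weights and 13 with each array centred by chromosome.

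The decline was largest at day 6 and then eased a little. Against day 0, 19 genes were lower by day 2 (background 15.4%), 30 by day 4 (23.6%), 32 by day 5 (32.3%), 55 by day 6 (35%) and 50 by day 8 (40.3%). At day 5 the share was near that of all genes. The day 2 count was 11 without replicate 1 of control day 2. The median difference went from -0.08 at day 2, through -0.18 at day 4 and -0.15 at day 5, to -0.34 at day 6 and -0.31 at day 8, when the medians of all genes were 0.02, -0.06, -0.12, -0.11 and -0.14. Genes called higher numbered 10, 10, 16, 7 and 7 on these days, against backgrounds of 16.6%, 22.5%, 25.1%, 28.1% and 31.9%. Those higher counts were between 3 and 17 when 1 array was left out. They fell by more than 1.5 times without a control array of day 0 (5 at day 2 without either replicate; 6, 3 and 4 at days 4, 6 and 8 without replicate 1). They also fell without arrays of the later days (4 and 5 at day 2 without replicates 1 and 2 of day 2, 6 without either replicate of day 10, 9 at day 5 without replicate 1 of day 5, 3 at day 6 and 4 at day 8 without replicate 2 of that day).

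Among arrays of like spike-in signal, the median of the 92 genes was -0.08 for replicate 1 of control day 4 against day 0, where all genes gave 0.00. On the side of low spike-in signal, day 10 against day 5 gave -0.21 against -0.06 for all genes, with 71 of 92 differences negative, and day 10 against replicate 2 of day 4 gave -0.14 against -0.07. With a term for the spike-in class in the fit, 33 genes were lower and 4 higher at day 6 against day 0. The share of all genes called under that fit is not given here, so these counts cannot be set against a background. The part of the spike-in difference in the comparisons with day 0 was otherwise not tested.

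**Figure D1:**
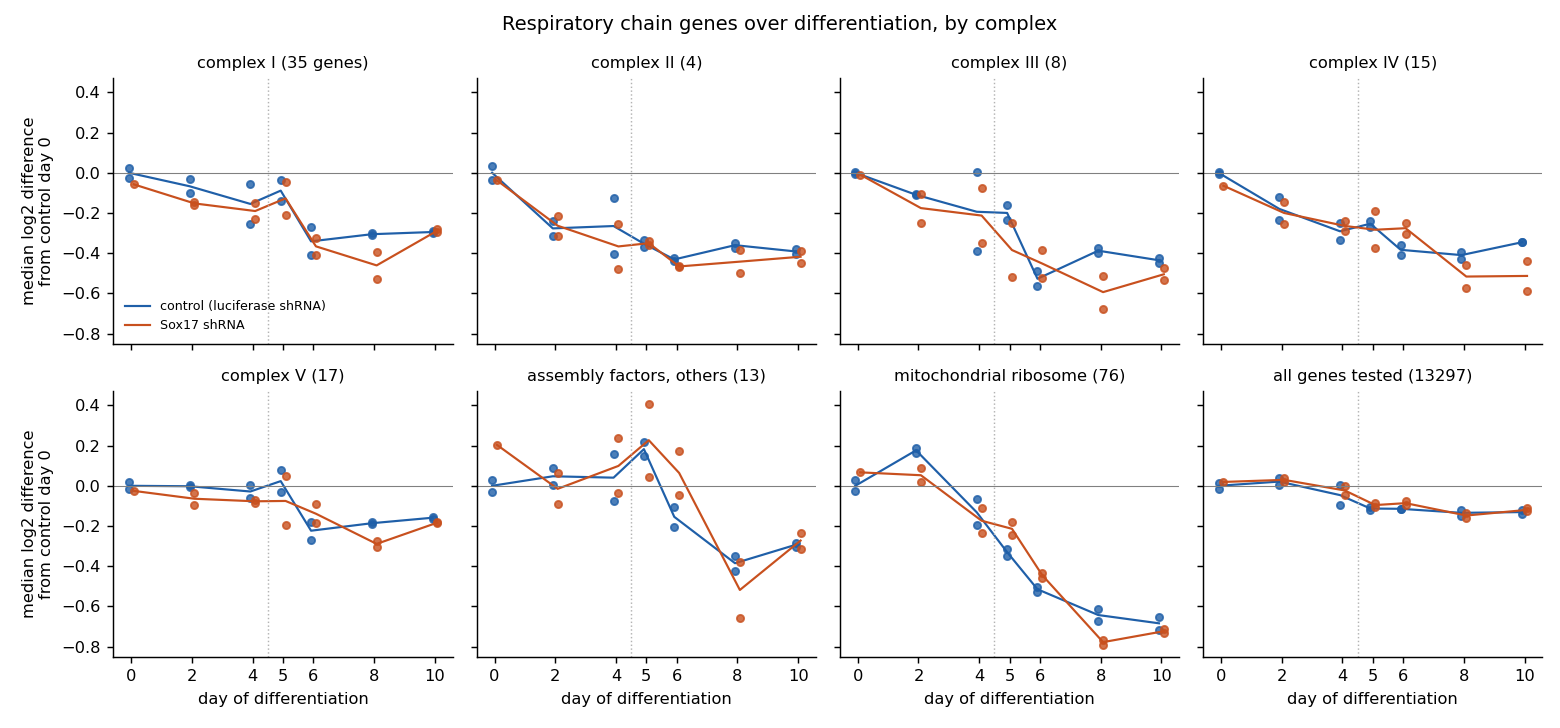
Median log2 difference from the mean of control day 0, for each array, of the genes of complexes I to V, the assembly factors, the mitochondrial ribosome and all genes tested, against the day; dots are arrays, lines join group means, blue is the control arm, orange the Sox17 shRNA arm, and the dotted line marks plating at day 4.5. The medians of the complexes fell below 0 in both arms by day 10, when the control medians ranged from -0.15 for complex V to -0.44 for complex III, against -0.13 for all genes.

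Complex I, which takes electrons from NADH, had 20 of 35 genes lower at control day 10, against 40% of all genes. Its median was -0.28, and 0 genes were higher by limma (0 also at an unadjusted p under 0.05), against 31.5%. Ndufs5, an accessory subunit, had log2 values of 10.21 and 10.26 at day 0 and 9.18 and 9.15 at day 10, a difference of -1.07 (adjusted p = 1.92e-05, limma). Both day 10 arrays lay below both day 0 arrays. The core subunits that bind NADH or hold iron-sulfur clusters were also lower, with differences of -0.82 in Ndufs1, -0.79 in Ndufv2 and -0.73 in Ndufv1, and the accessory subunit Ndufb10 went from 10.32 and 10.28 to 9.32 and 9.28. Ndufa4l2, a hypoxia-responsive relative of Ndufa4, had the largest difference of the 92 genes. It read 7.61 and 7.45 at control day 0, 6.20 and 6.07 at day 2, 6.03 and 6.08 at day 4, 5.87 and 5.72 at day 5, 5.73 and 5.99 at day 6, 5.77 and 5.49 at day 8, and lastly 5.80 and 5.90 at day 10. It was thus high only at day 0, with most of the drop over by day 2, and the difference at day 10 was -1.68 (SE 0.16, adjusted p = 6.57e-08). The Sox17 shRNA arm had the same course, from 7.08 on its single array of day 0 to 5.71 and 5.47 at day 10.

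Complex II, which also serves the tricarboxylic acid cycle, had 2 of 4 genes lower at control day 10, against 40% of all genes. Its median was -0.39. Sdhb, the iron-sulfur subunit, went from 11.45 and 11.46 to 10.77 and 10.71, a difference of -0.71 (SE 0.12, adjusted p = 4.76e-05, limma). Sdha, the flavoprotein subunit, went from 11.18 and 11.04 to 10.51 and 10.53, a difference of -0.60 (SE 0.09, adjusted p = 8.18e-06). For each the days did not overlap.

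Complex III had 4 of 8 genes lower and 1 higher, against 40% and 31.5% of all genes, with a median of -0.44. Uqcrq fell by 0.94 (SE 0.13, adjusted p = 6.92e-06, limma) and Uqcr10 by 0.84 (SE 0.10, adjusted p = 5.2e-07), both small subunits, and the core protein gene Uqcrc1 by 0.61. Uqcrh, the hinge protein that joins cytochrome c to cytochrome c1, went the other way. Its control values were 11.32 and 11.39 at day 0, 11.52 and 11.56 at day 2, 11.65 and 11.79 at day 4, 12.05 and 11.98 at day 5, and lastly 11.92 and 11.98 at day 10. It rose up to day 5 and stayed there, and the difference at day 10 was 0.60 (SE 0.09, adjusted p = 2.07e-05). The Sox17 shRNA arm reached 11.94 and 11.85 at day 10.

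Complex IV, cytochrome c oxidase, had 10 of 15 genes lower and 1 higher, against 40% and 31.5% of all genes. Its median was -0.35. Cox7c went from 7.75 and 7.65 to 6.58 and 6.39, a difference of -1.21 (SE 0.19, adjusted p = 2.66e-05, limma). Smaller differences were found in Cox6c (-0.60), Cox5a (-0.51) and Cox5b (-0.29). Cox6b2, the testis form of subunit 6b, followed a course of its own. In the control arm it read 10.07 and 10.00 at day 0, 7.88 and 7.85 at day 2, 8.74 and 8.41 at day 4, 8.53 and 8.42 at day 5, 7.48 and 7.75 at day 6, 8.64 and 8.74 at day 8, and lastly 9.19 and 9.11 at day 10. It dropped steeply by day 2, reached its lowest values at day 6 and then came back, with a day 10 difference of -0.89 (SE 0.19, adjusted p = 3.97e-04). Its widespread counterpart Cox6b1 stayed between 12.31 and 12.73 on all arrays. Cox4i2, the alternative form of subunit 4, gave -0.27 (adjusted p = 0.163) and was not called.

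Complex V, the ATP synthase, had 7 of 17 genes lower, a share near the 40% of all genes, and 1 higher, against 31.5%. Its median, -0.15, was the smallest among the complexes and near that of all genes. Its c ring protein, identical once processed, is made from 3 genes, and these did not move alike. Atp5g1 read 11.49 and 11.33 at control day 0, 11.34 and 11.47 at day 2, 10.75 and 10.72 at day 4, 10.06 and 10.30 at day 5, 10.06 and 10.25 at day 6, 10.13 and 10.13 at day 8, and lastly 9.99 and 9.96 at day 10. It kept its level to day 2 and fell between days 2 and 5, with a day 10 difference of -1.44 (SE 0.13, adjusted p = 2.87e-08, limma). Atp5g2 went from 12.21 and 12.19 to 11.40 and 11.43, a difference of -0.78 (SE 0.12, adjusted p = 2.32e-05). Atp5g3 lay between 12.56 and 12.83 on all arrays, with a day 10 difference of 0.08 (adjusted p = 0.153). The 1 gene called higher was Atp5mpl, a small proteolipid subunit, at 0.40 (SE 0.12, adjusted p = 0.00527). Atp5b, the catalytic beta subunit, gave -0.36.

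Of the 13 assembly factors and other genes, 6 were lower and 3 higher at control day 10, against 40% and 31.5% of all genes. The median was -0.29. The lower ones were complex I assembly factors: Ndufaf5 (-1.27), Ndufaf7 (-1.26), Ndufaf6 (-1.11), Ndufaf2 (-1.10), Ndufaf3 (-0.80) and Ndufaf1 (-0.63). Ndufaf5 went from 7.68 and 7.79 to 6.51 and 6.43, and Ndufaf7 from 8.50 and 8.40 to 7.17 and 7.21, in both cases without overlap. The higher ones were Sdhaf1, an assembly factor of complex II (0.47), Cox7a2l (0.46) and Ndufaf4 (0.26). For Ndufaf4 a dimmer probe set gave -0.18, so its direction depends on the probe set.

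**Figure D2:**
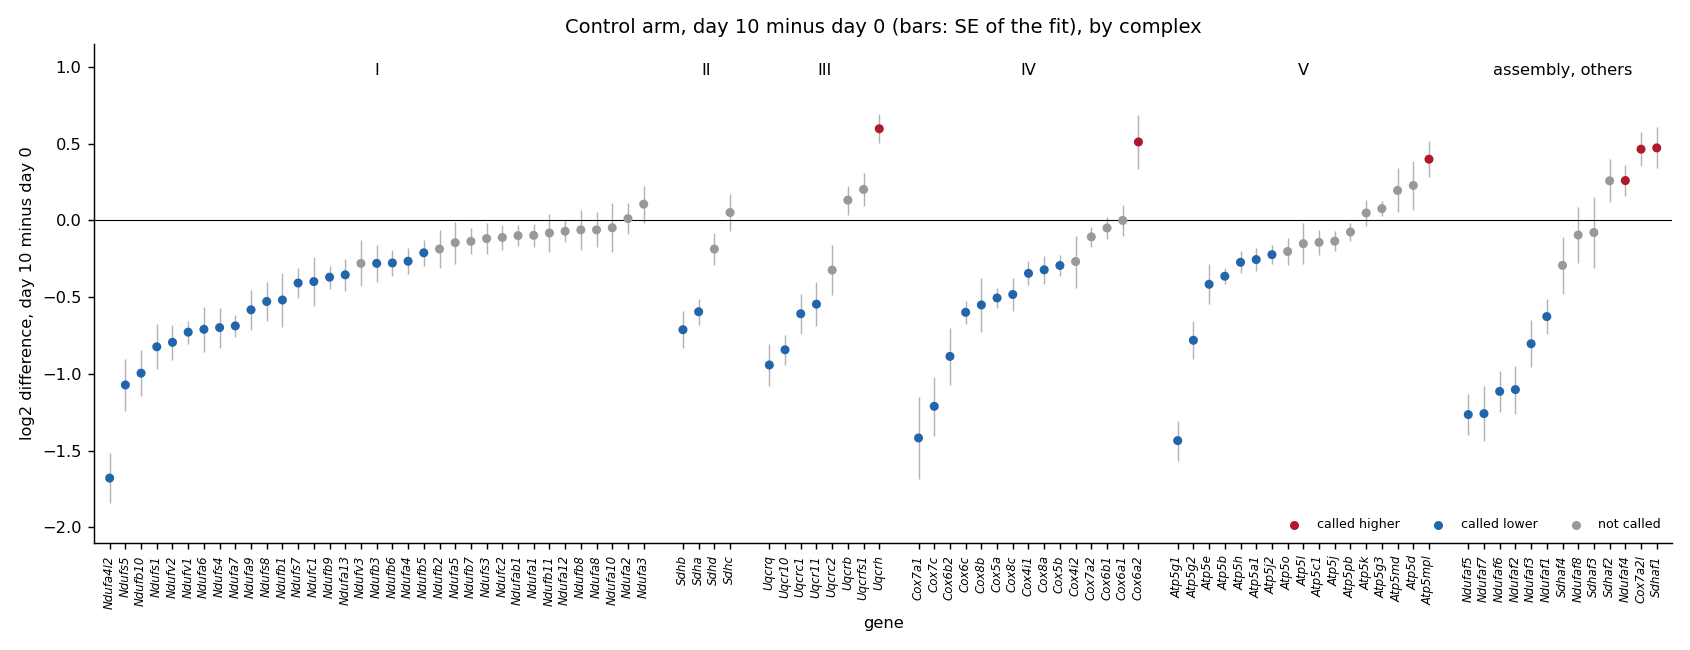
Control day 10 minus control day 0 on the log2 scale for each of the 92 genes, sorted within complexes I to V and the assembly factors; bars are standard errors of the fit, and colour marks genes called lower, higher or neither at an adjusted p of 0.05. The lower genes lie in every complex, from Ndufa4l2 at -1.68, Atp5g1 at -1.44 and Cox7a1 at -1.42, while the 6 higher genes reach at most 0.60, in Uqcrh.

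The step with the most lower calls lay between days 5 and 6, the first days after plating, though its count rested on single arrays. In the control arm 38 of the 92 genes were lower at day 6 than at day 5 and 0 higher by limma (53 and 2 at an unadjusted p under 0.05), against 6.72% lower and 11.2% higher among all genes, and the median was -0.28 against -0.02. Complex I contributed 18 of its 35 genes, the assembly factors 8 of 13, complex V 6 of 17, complex III 3 of 8, complex IV 2 of 15 and complex II 1 of 4. The largest were Cox6b2 (-0.86), Sdhaf4 (-0.75), Atp5l (-0.74) and Ndufaf2 (-0.69). That count was 6 without replicate 1 of control day 5 and 3 without replicate 1 of control day 6. In the Sox17 shRNA arm the same step gave 14 genes lower and 2 higher, against 7.14% and 9.81% of all genes, with a median of -0.11. When the steps of the arms were compared, 0 of the 92 genes were called by limma (11 at an unadjusted p under 0.05), against 0.165% of all genes higher and 0.541% lower. Over this step 8 of 15 glycolysis genes rose in the control arm, with a median of 0.66, and 24 of 76 mitochondrial ribosome genes were lower, with a median of -0.29.

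The first step, from day 0 to day 2, gave the 10 higher and 19 lower genes counted above. From day 2 to day 4, 5 were higher and 12 lower, against 15.5% and 17% of all genes, and from day 4 to day 5, 2 were higher and 3 lower, against 4% and 6.17%. From day 6 to day 8, 8 were higher and 2 lower in the control arm, against 5.65% and 2.68% of all genes. They included Cox6b2 (1.08), Cox6a2 (0.67), Ndufa10 (0.67) and Atp5l (0.51) among the higher, and Cox8c (-0.42) and Ndufa7 (-0.26) as the lower. From day 8 to day 10, 0 were called by limma (2 at an unadjusted p under 0.05), against 0.263% of all genes higher and 0.0902% lower.

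The muscle forms of complex IV did not move as a group. Cox6a2 was the only one of the 3 that was higher at control day 10 than at day 0, while Cox7a1 and Cox8b were lower. In the control arm Cox6a2 read 7.08 and 7.22 at day 0, 7.10 and 6.99 at day 2, 6.98 and 6.51 at day 4, 6.32 and 6.57 at day 5, 6.66 and 6.79 at day 6, 7.51 and 7.27 at day 8, and lastly 7.62 and 7.70 at day 10. It dipped to its lowest at day 5 (-0.70 against day 0, adjusted p = 0.00251, limma) and then climbed above its starting level. The day 10 difference from day 0 was 0.51 (SE 0.18, adjusted p = 0.016), and the call was lost without replicate 1 of control day 0 (0.44, adjusted p = 0.093) or replicate 2 of control day 10 (0.47, adjusted p = 0.0763), and with each array centred on its median (0.39, adjusted p = 0.072).

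In the Sox17 shRNA arm Cox6a2 did not climb. It read 7.12 at day 0, 6.80 and 7.30 at day 2, 6.92 and 6.52 at day 4, 6.49 and 6.42 at day 5, 6.34 and 6.36 at day 6, 6.29 and 6.14 at day 8, and lastly 6.14 and 6.34 at day 10. The arms overlapped from day 0 to day 5 and lay apart from day 6 on, with the Sox17 shRNA arrays lower. At day 6 the difference was -0.38 (adjusted p = 0.289, limma) and not called. It was -1.18 at day 8 (SE 0.18, adjusted p = 3.48e-04) and -1.43 at day 10 (adjusted p = 3.07e-05). The group means at day 10 were 7.66 ± 0.05 (SD, n = 2) in the control and 6.24 ± 0.14 in the Sox17 shRNA arm. A second Cox6a2 probe set did not pass the filter on low values.

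The arm difference of Cox6a2 at days 8 and 10 was also tested against its own difference at day 2. It changed by -1.31 (SE 0.22, adjusted p = 0.00125, limma), and Cox6a2 was the only one of the 92 genes called in that comparison, in which 1.96% of all genes were higher and 2.31% lower. To compare it with its widespread partner, the log2 value of Cox6a1 was subtracted on each array. The arm difference relative to Cox6a1 was -1.08 at day 8 (adjusted p = 0.00895) and -1.52 at day 10 (SE 0.23, adjusted p = 2.63e-04), and the change from day 2 was -1.37 (adjusted p = 0.00875). Cox6a1 itself stayed between 12.28 and 12.75 on all arrays, with an arm difference of 0.03 on average over days 4 to 10. The rise of Cox6a2 relative to Cox6a1 in the control arm, 0.51 at day 10, was not called (adjusted p = 0.0628).

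Cox7a1 was highest at day 0 and did not regain that level. Its control values were 7.58 and 7.65 at day 0, 6.53 and 6.68 at day 2, 6.39 and 6.61 at day 4, 6.18 and 5.97 at day 5, 5.65 and 5.70 at day 6, 6.33 and 6.13 at day 8, and lastly 6.15 and 6.24 at day 10. The lowest arrays were those of day 6 (-1.94 against day 0, adjusted p = 6.38e-06, limma). The day 8 arrays lay above those of day 6, by 0.55, without passing the test (adjusted p = 0.215), and the difference of day 10 from day 0 was -1.42 (SE 0.27, adjusted p = 1.46e-04).

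In the Sox17 shRNA arm Cox7a1 read 7.08 at day 0, 6.11 and 5.24 at day 2, 5.71 and 6.03 at day 4, 5.11 and 6.11 at day 5, 5.77 and 5.55 at day 6, 4.88 and 4.62 at day 8, and lastly 5.18 and 4.85 at day 10. These arrays lay below the control arrays at every day except days 5 and 6, when the arms overlapped. The difference was -1.48 at day 8 (SE 0.27, adjusted p = 0.00203, limma) and -1.18 at day 10 (adjusted p = 0.0077). The Sox17 shRNA values at days 8 and 10 lay below 5.531, the median of all values, on which the filter on low values rests. How far such low values limit the size of the differences was not tested. The day 10 call was lost without replicate 1 or 2 of control day 10 (adjusted p = 0.0513 and 0.0738) or replicate 2 of Sox17 shRNA day 10 (adjusted p = 0.075). Over days 8 and 10 together it was -1.33 (SE 0.19, adjusted p = 7.38e-05), and relative to Cox7a2 it was -1.15 (adjusted p = 2.50e-04). Unlike in Cox6a2, values already stood apart at day 2, by -0.93 (adjusted p = 0.0781), and the change from day 2 to days 8 and 10 was -0.40 (adjusted p = 0.688). That change was 0.04 without replicate 1 of Sox17 shRNA day 2.

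Cox8b was lower at control day 10 (5.07 and 5.07) than at day 0 (5.62 and 5.62), a difference of -0.55 (SE 0.18, adjusted p = 0.00977, limma). With a term for the spike-in class that difference was -0.03 (adjusted p = 0.906), and it was -0.30 after chromosome centring, described further on (adjusted p = 0.108). Its values, 4.57 to 5.93 over all arrays, lay around 5.531, the median of all values in the table, on which the filter on low values rests. At day 10 the Sox17 shRNA arrays, 4.80 and 4.78, were below both control arrays, and the difference of -0.28 was not called (adjusted p = 0.421). The average over days 4 to 10 was -0.20 (adjusted p = 0.0728); it was called without replicate 2 of control day 4 (-0.27, adjusted p = 0.00254) or replicate 1 of Sox17 shRNA day 4 (-0.23, adjusted p = 0.0388). Relative to Cox8a, which stayed between 10.48 and 11.30, the average was -0.10 (adjusted p = 0.351).

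**Figure D3:**
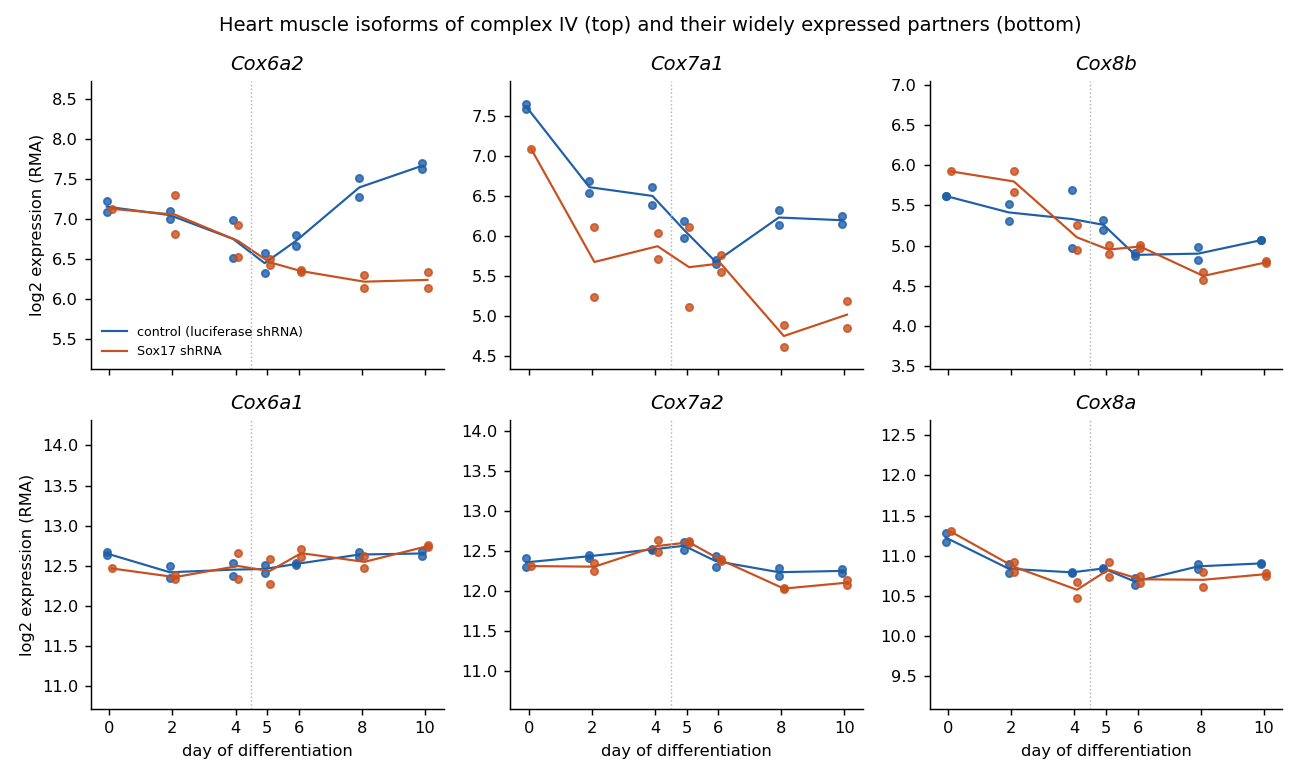
Log2 values of the muscle forms Cox6a2, Cox7a1 and Cox8b (upper panels) and of their widespread counterparts Cox6a1, Cox7a2 and Cox8a (lower panels) against the day; dots are arrays, lines join group means, blue is the control arm and orange the Sox17 shRNA arm, and the dotted line marks plating at day 4.5. Cox6a2 stands at 7.62 and 7.70 on the control arrays of day 10 and at 6.14 and 6.34 on the Sox17 shRNA arrays, whereas Cox6a1 stays between 12.28 and 12.75 in both arms.

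The widespread partners differed little between the arms. Over days 4 to 10 the averages of Cox6a1, Cox7a2 and Cox8a were 0.03, -0.05 and -0.10, none called. Over days 8 and 10, Cox7a2 was lower, at -0.18 (adjusted p = 0.0153, limma), and Cox6a1 and Cox8a, at 0.00 and -0.15, were not called. The heart muscle markers were lower on the same Sox17 shRNA arrays, with a median of -2.90 over days 8 and 10, and their part in the differences of Cox6a2 and Cox7a1 was not tested. Skeletal muscle, another tissue that uses these forms, had 4 of 12 markers above the filter. Of these, 0 were called between the arms by limma on average over days 4 to 10 (2 at an unadjusted p under 0.05). Of the 4 brown fat markers, Ucp1, Cidea and Elovl3 did not pass.

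The genes whose values ran most like each muscle form were ranked by Pearson's r over the 27 arrays, which share days and arms, so r is a description only. For Cox6a2 these were Tesc (0.864), a calcineurin B homologous protein, Mybphl (0.859), a myosin binding protein H like protein of atrial muscle, and Srl (0.847), sarcalumenin of the sarcoplasmic reticulum. For Cox7a1 they were Sirt3 (0.862), a mitochondrial deacetylase, Ndufaf1 (0.854), and Ubxn2a (0.849). For Cox8b they were Bcl2l14 (0.923), Dhx32 (0.919) and Paqr8 (0.917).

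Between the arms, fewer of the 92 genes were called higher than among all genes, while the share called lower was near that of all genes. On average over days 4 to 10, 8 were higher and 14 lower in the Sox17 shRNA arm, against 14.8% and 12.2% of all genes tested, and the median was -0.03 against 0.01. Complex I, as the symbols assign it, held 5 of the higher (Ndufa4 among them) and 6 of the lower genes, complex III 3 of the lower, complex IV 1 higher and 2 lower, the assembly factors 2 higher and 3 lower. Complexes II and V had 0 called by limma (1 and 4 at an unadjusted p under 0.05). At day 8 alone the median was -0.14 against -0.01 for all genes, with 81 of 92 differences negative against 6925 of 13297. For the 84 genes outside chromosomes 6 and 8, which stand apart as described further on, the day 8 median was -0.15 with 4 positive, against -0.03 and 43.6% positive for all 11874 genes there. Over days 8 and 10 together, 6 were higher and 14 lower, against 8.39% and 8.17%. The lower count was 7 to 9 without either control array of day 8 or day 10, replicate 2 of Sox17 shRNA day 8 or replicate 1 of Sox17 shRNA day 10. The higher count was 3 without replicate 1 of control day 8, replicate 2 of control day 10, or replicate 1 of Sox17 shRNA day 8 or day 10.

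On single days few genes were called by limma. Day 0 gave 4 higher and 0 lower, against 1.13% and 0.76% of all genes, day 2 gave 1 and 0 (1.55% and 0.993%) and day 4 gave 2 and 0 (3.33% and 1.81%). At an unadjusted p under 0.05 those 3 days had 5, 10 and 6 lower. Day 5 gave 5 higher and 1 lower (6.15% and 3.24%) and day 6 gave 6 and 1 (2.84% and 2.36%). Day 8 gave 0 higher (2 at an unadjusted p under 0.05) and 5 lower (1.89% and 2.93%), and day 10 gave 5 and 3 (5.62% and 4.38%). Ndufa5 and Ndufb2 were among the higher genes at days 0, 4, 5, 6 and 10, and Ndufc2 was among the lower ones from day 5 to day 10. Others among the leading calls were Sdhaf1 (0.71) on day 0, Ndufaf2 (0.51) on day 5, Atp5l (0.48) on day 6, Uqcrq (-0.51) on day 8 and Ndufa9 (0.48) on day 10. These counts rest on single arrays. When any 1 array was left out, the total called was 0 to 4 on day 0, 0 to 2 on day 2, 1 to 3 on day 4, 1 to 11 on day 5, 2 to 8 on day 6, 2 to 7 on day 8 and 2 to 9 on day 10. The arrays concerned were both replicates of the same day in the control arm (all days but day 6), replicate 1 of control day 6, and in the Sox17 shRNA arm both replicates of days 5 and 10, replicate 2 of day 2 and replicate 1 of day 6. For days 2 and 4 arrays of other days moved the count by 1 as well.

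Ndufa5, an accessory subunit of complex I, had the clearest difference between the arms. Its control values were 9.81 and 9.76 at day 0, 10.18 and 10.13 at day 2, 9.71 and 9.66 at day 4, 9.90 and 9.61 at day 5, 9.38 and 9.63 at day 6, 9.63 and 9.58 at day 8, and lastly 9.65 and 9.64 at day 10. In the Sox17 shRNA arm they were 10.59 at day 0, 10.55 and 10.66 at day 2, 10.49 and 10.57 at day 4, 10.41 and 10.58 at day 5, 10.59 and 10.36 at day 6, 10.05 and 9.72 at day 8, and lastly 10.37 and 10.00 at day 10. The arms did not overlap on any day, day 0 included, when the difference was 0.80. Averaged from day 4 to day 10 it was 0.68 (SE 0.06, adjusted p = 2.73e-07, limma), and a second probe set gave 0.77.

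Ndufb2 and Ndufa4 behaved in the same way. At day 0 Ndufb2 read 10.35 and 10.29 in the control and 11.03 in the Sox17 shRNA arm, and at day 10 it read 10.17 and 10.09 against 10.65 and 10.56. The arms did not overlap on any day. Its average was 0.47 (SE 0.06, adjusted p = 5.49e-06, limma). Ndufa4 read 11.74 and 11.65 against 12.17 at day 0 and 11.45 and 11.41 against 11.96 and 11.79 at day 10, with an average of 0.34 (SE 0.04, adjusted p = 3.12e-06). The other higher genes were Ndufa9 (0.39), Sdhaf3 (0.38), Ndufaf2 (0.21), Ndufb7 (0.20) and Cox4i1 (0.19).

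Of these 8 higher genes, 7 lie on chromosome 6 or 8, a feature looked for after their values were seen. Sdhaf3 (start at 6956018), Ndufa4 (11907450), Ndufa5 (24527690 and 24527526), Ndufb2 (39592565) and Ndufa9 (126849144) are spread along chromosome 6 in GRCm38.p6, and Ndufb7 (83566758) and Cox4i1 are on chromosome 8. Most genes of these chromosomes were shifted the same way. On average over days 4 to 10 the difference was positive in 86.4% of the genes tested on chromosome 6 and 87.0% on chromosome 8. Of the genes on both, 2.94% were called lower. Over days 4 to 10, the median arm difference was 0.26 for the 676 genes tested on chromosome 6 and 0.29 for the 718 on chromosome 8, and 59.0% of these 1394 genes were called higher against 9.64% of the 11874 on other chromosomes. Among the respiratory chain genes, 7 of 8 on chromosomes 6 and 8 were called higher against 1 of 84 elsewhere, and the eighth, Ndufa13 on chromosome 8, had 0.13. The 1 higher gene elsewhere was Ndufaf2, on chromosome 13.

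The timing of the shift differed between the chromosomes. On chromosome 6 the median arm difference was 0.30 at day 0 and between 0.21 and 0.30 at every later day. On chromosome 8 it was 0.08 at day 0 and between 0.23 and 0.31 from day 2 on. The change on chromosome 8 was larger in the control arm. Relative to other chromosomes, its genes differed from control day 0 by -0.19 at day 2 and -0.29 at day 10 in that arm. In the Sox17 shRNA arm they differed from control day 0 by 0.06 and -0.03. That arm's single day 0 array stood at 0.08 on chromosome 8 against 0.01 on chromosomes other than 6 and 8. Cox4i1, the widespread form of complex IV subunit 4, likewise changed more in the control arm. It read 12.93 and 12.93 at control day 0, 12.55 and 12.69 at day 2, and lastly 12.59 and 12.58 at day 10, against 12.82 at day 0 and 12.86 and 12.81 at day 10 in the Sox17 shRNA arm. Its control change at day 10, -0.35, was 0.05 after the median of its chromosome was subtracted, and that of Ndufa13, -0.35, was 0.04.

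With each array's values centred on the median of the gene's chromosome, an alternative added after seeing the data, 5 genes were called higher on average over days 4 to 10. These were Ndufa5 (0.45), Ndufb2 (0.25), Ndufaf2 (0.23), Ndufa9 (0.16) and Ndufa4 (0.11). Sdhaf3 kept 0.15 (adjusted p = 0.271, limma), and Cox4i1 and Ndufb7 turned to -0.07 and -0.06. Ndufa13, not called before, turned from 0.13 to -0.13 and was then called lower (adjusted p = 0.0456). What shifted the chromosomes was not tested. Cox6a2, Cox7a1 and Cox8b lie on chromosome 7, where the median arm difference of the 1061 genes tested was between -0.01 and 0.03 over the 7 days.

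**Figure D4:**
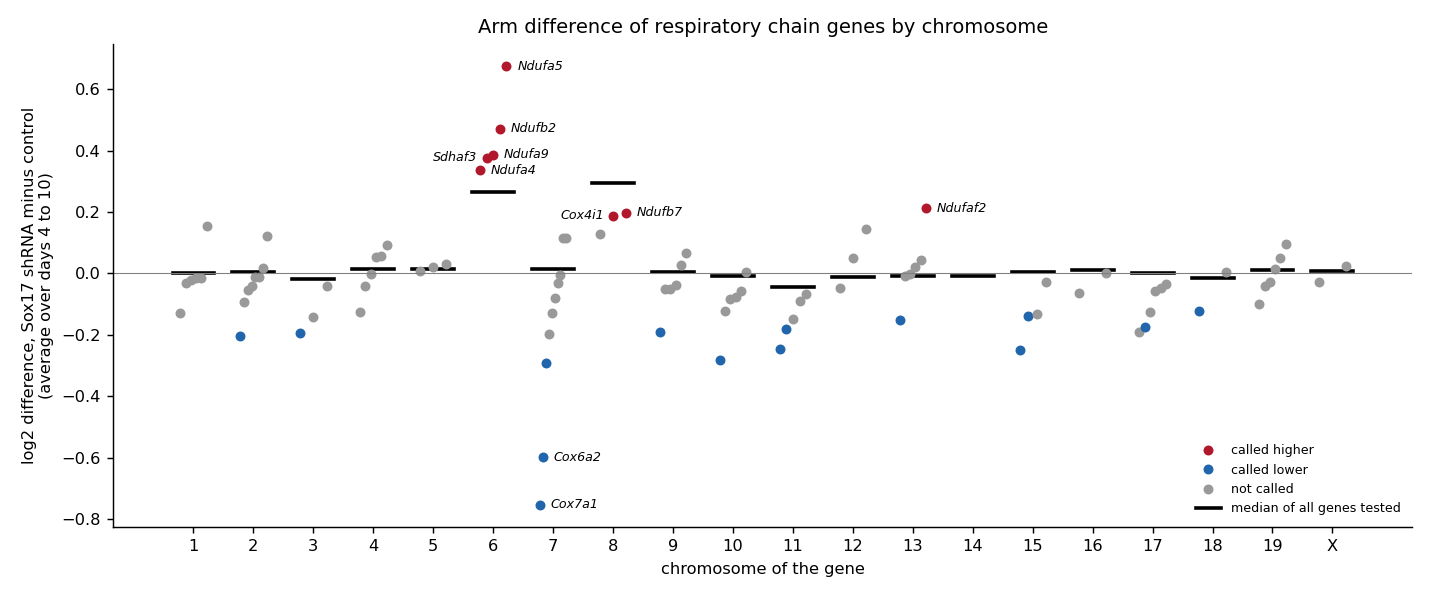
Arm difference (Sox17 shRNA minus control, log2, average over days 4 to 10) of each of the 92 genes by chromosome, coloured by whether it was called higher, lower or neither, with black bars for the median of all genes tested on that chromosome. On chromosomes 6 and 8 the bars stand at 0.26 and 0.29, and 7 of the 8 respiratory chain genes there were called higher.

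The genes lower in the Sox17 shRNA arm all lay on other chromosomes, and 14 of the 84 genes there were called, close to the 13.3% of all genes on those chromosomes. Besides Cox6a2 and Cox7a1 they were smaller differences in complex I (Ndufc2, Ndufs7, Ndufa6, Ndufb5, Ndufb9 and Ndufa2), complex III (Uqcrq, Uqcr10 and Uqcrfs1) and the assembly factors and others (Ndufaf1, Ndufaf3 and Cox7a2l). After chromosome centring Ndufa2 (-0.09, adjusted p = 0.165, limma) and Ndufaf3 (-0.15, adjusted p = 0.126) were no longer called. Uqcrq and Uqcr10 lie on chromosome 11, where 21.4% of 1113 genes were called lower and 4.94% higher, with a median of -0.04. Both were still called lower after centring (-0.19 and -0.12, adjusted p = 0.0266 and 0.0325, limma). Ndufc2, an accessory subunit of the membrane arm, read 11.39 and 11.31 on control arrays of day 8 and 11.50 and 11.42 at day 10, against 10.91 and 10.96, and 11.13 and 11.09, in the Sox17 shRNA arm. The arms did not overlap at either day, and from day 4 to day 10 they averaged -0.29 (SE 0.04, adjusted p = 1.03e-05, limma). Of its other probe sets 2 gave -0.36 and -0.44, and a dimmer one 0.31.

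Ndufs7, a core subunit with an iron-sulfur cluster, read 10.09 and 10.16 at control day 8 and 10.27 and 10.30 at day 10, against 9.85 and 9.62, and 10.03 and 10.02. It did not overlap between the arms at either day, with an average of -0.28 (SE 0.04, adjusted p = 6.87e-05, limma). Uqcrq read 10.14 and 10.14 at control day 8 against 9.55 and 9.71, and 10.21 and 10.11 against 9.71 and 10.04 at day 10. Its average was -0.25 (SE 0.06, adjusted p = 0.00439). Uqcr10 had -0.18 (adjusted p = 0.00379), but its other probe sets gave 0.12 and 0.44, so its direction depends on the probe set. In 48 of the 92 genes more than 1 probe set passed the filter. Among these 48, the probe sets of a gene had both signs in 15 genes for this average. For control day 10 minus day 0 they did so in 14.

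The wider machinery of energy metabolism, read through gene lists drawn up with earlier results of these data known, had in part lower median differences than the chain itself. Its counts are to be read against the 40% of all genes that were lower and the 31.5% that were higher. At control day 10, 66 of 76 mitochondrial ribosome genes, which translate the chain's mitochondrial-encoded subunits, were lower and 1 higher (Mrps6, 1.26), with a median of -0.67 and the lowest values in Mrpl35 (-1.85) and Mrpl40 (-1.82). Of 30 carriers, assembly and accessory genes, 16 were lower and 3 higher, with a median of -0.42. The complex I assembly factor Ecsit (-1.97), the copper chaperone of complex IV Sco2 (-1.24) and cytochrome c1, Cyc1 (-0.64), were lower, while Sco1 (0.89) and Coa5 (0.86) were higher. Of 16 regulators of mitochondrial biogenesis and mitochondrial DNA expression, 9 were lower and 0 higher by limma (10 in either direction at an unadjusted p under 0.05), among them the transcription factors Nrf1 (-0.85), Gabpa (-0.44) and Esrra (-0.46) and the mitochondrial transcription factor Tfam (-0.32). The lowest were Tefm (-1.81), an elongation factor of mitochondrial transcription, and Tfb1m (-1.25), which methylates the mitochondrial ribosomal RNA. Ppargc1a and Ppara did not pass the filter.

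The pathways that feed the chain were mixed, and the shares of the tricarboxylic acid cycle and of fatty acid oxidation called lower were near that of all genes. In the tricarboxylic acid cycle and pyruvate dehydrogenase, 9 of 18 genes were lower and 1 higher at control day 10 (median -0.26), with Idh3g (-1.12) and Pcx (-1.05), the anaplerotic pyruvate carboxylase, as the lowest and Dlst (0.23) as the higher one. Fatty acid oxidation had 8 of 17 lower and 5 higher (median -0.30). Its entry enzyme in most tissues, Cpt1a (-1.70), and the medium-chain dehydrogenase Acadm (-1.24) were lower, and Acadvl (0.95), for very long chains, and Etfdh (1.09), which hands electrons to the chain, were higher. In the exchange of adenine nucleotides and phosphate, 7 of 10 were lower and 2 higher (median -0.58), with the creatine kinases Ckmt1 (-1.54) and Ckb (-1.01) the lowest and the higher ones being the heart and muscle ADP/ATP carrier Slc25a4 (0.46) and the phosphate carrier Slc25a3 (0.28). Glycolysis had 3 of 15 lower, including Pfkp (-2.16) and Hk2 (-1.51), and 0 higher by limma (3 in either direction at an unadjusted p under 0.05), with a median of -0.07.

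Between the arms most of these lists were called about as often as all genes (14.8% higher and 12.2% lower), with glycolysis called lower more often. On average over days 4 to 10, mitochondrial ribosome genes had 10 higher and 9 lower of 76, the carriers and accessory genes 2 and 5 of 30, the tricarboxylic acid cycle 2 and 2 of 18, fatty acid oxidation 2 and 3 of 17, biogenesis 2 and 2 of 16, and nucleotide exchange 1 and 0 of 10 by limma (3 in either direction at an unadjusted p under 0.05). Glycolysis had 1 higher and 6 lower of 15, with a median of -0.15, and -0.39 over days 8 and 10. Fabp3, the fatty acid binding protein of heart muscle, had the largest difference among them (-1.70). Other lower genes were Acadvl (-0.50), the glycolytic Pfkl (-0.70) and Ldha (-0.39), the ribosome genes Mrpl45 (-0.42) and Mrpl58 (-0.28), the mitochondrial DNA polymerase subunit Polg2 (-0.34), Tefm (-0.27), and the complex IV factors Cox11 (-0.31) and Higd2a (-0.25). The higher ones included the ribosome genes Mrpl19 (0.61) and Mrps33 (0.49), Hadhb (0.57) of fatty acid oxidation, the succinyl-CoA ligase genes Suclg1 (0.38) and Suclg2 (0.29), Hk2 (0.33), Pprc1 (0.25) and Ssbp1 (0.22). Of the 20 genes of these lists that were higher, 14 lie on chromosome 6 or 8, as does 1 of the 27 lower ones. Among the 14 are Cycs (0.24), the cytochrome c gene, and Vdac3 (0.39). Of the lower genes named here, Acadvl, Mrpl45, Mrpl58, Polg2, Tefm and Cox11 lie on chromosome 11, and the others do not. On chromosome 11, 21.4% of all genes tested were called lower.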

How the data were processed

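The deposited table holds log2 values made by the authors with RMA, per the submitters' processing notes, for 45101 probe sets on 27 arrays. RMA corrects background, makes the distributions of arrays alike and summarises probes; its version is not given in the sources used here. Of the probe sets, 34958 had 1 symbol in the platform annotation, 932 had several and 9211 were not listed. Those with several included 10 with a symbol that meets the rule. Only probe sets with 1 symbol were used. A probe set was kept where at least 2 arrays exceeded 5.531, the median of all values, which left 23536, and the brightest per gene was taken. limma 3.58.1 in R 4.3.3 fitted 14 group means with an intensity trend over 13297 genes, with Benjamini-Hochberg adjustment and a threshold of 0.05. For isoform pairs the partner's value was subtracted from every gene before the fit. The fits were tested on simulated data.

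The members and lists were chosen with earlier results of these data known. Genes named were the tissue isoforms, the 2 largest called changes of each direction per complex or pathway list, up to 3 per day between the arms, and the 3 most alike to each muscle isoform; further genes were named after their values were seen. Alternatives were other normalisations, filters, probe set rules, weights, a spike-in term, the replicate block and each array left out. The number of arrays limits the precision.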

Additional observations from a re-analysis of the deposited data

Results flagged for a closer look

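The arm difference of Cox6a2, the heart and skeletal muscle form of complex IV subunit 6a, changed between day 2 and the average of days 8 and 10 by -1.31 on the log2 scale (SE 0.22, adjusted p = 0.00125, limma). The difference between the arms thus differed between time points, by a test of that difference itself. At day 2 the Sox17 shRNA arrays (6.80 and 7.30) overlapped the control arrays (7.10 and 6.99), and at days 8 and 10 all 4 Sox17 shRNA arrays lay below all 4 control arrays.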

How the results depend on the processing

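With 2 arrays per group, counts of calls on single days are the least firm values, and dim probe sets such as Cox8b limit what can be read. Over settings other than leaving out arrays, 346 values that answer a comparison kept direction and side of the threshold (counts within 1.5 times), 36 counts moved, 5 values newly passed and 3 no longer did. Without the intensity trend, 23 genes were lower from day 5 to day 6, 1 was called between the arms at day 4 and 4 at day 6, and without the filter on low values 1 at day 4. Array weights gave 12 higher at control day 10 and 9, 6, 0, 9 and 18 called between the arms at days 0, 2, 4, 8 and 10; Cox8b was then called over days 8 and 10 (-0.28, adjusted p = 0.04, limma) and in its change from day 2 (-0.66, adjusted p = 0.0186). The spike-in term gave 4 higher and 33 lower at control day 6, 4 higher at day 8, 3 higher at day 10 and 2 arm calls at day 2, and for Cox8b -0.028 at control day 10 (no longer called) and -0.20, -0.28 and -0.66 (now called) for the arm averages over days 4 to 10 and over days 8 and 10 and for the change from day 2. Median centring gave 1 and 3 arm calls at days 4 and 8, 8 lower over days 8 and 10 (14 otherwise), and Cox6a2 at 0.39 for control day 10. The mean over probe sets gave 1 and 3 at days 4 and 8, and turned Uqcr10 to 0.12 in the arm average and Cox8c and Ndufs4 to 0.084 and 0.087 at control day 10. The most variable probe set gave 3 at days 5 and 8 each and 9 lower on average, and turned Ndufc2 (0.31) and Uqcr10 (0.44) in the arm average and Atp5h (0.027), Ndufaf4 (-0.18) and Ndufs4 (0.13) at control day 10. Without the 2 arrays of highest 3′ to 5′ difference, day 4 had 4. Chromosome centring, added after seeing the data, gave 12 and 13 higher at control days 8 and 10, 0, 0, 1, 3, 3, 3 and 3 arm calls from day 0 to day 10, 5 higher on average, 0 higher (6 otherwise) and 8 lower over days 8 and 10, and Cox8b at -0.30 for control day 10. It turned Cox4i1 (-0.070), Ndufb7 (-0.060) and Ndufa13 (-0.13, then called) in the arm average and Cox4i1 (0.047) and Ndufa13 (0.038) at control day 10. The cause was not tested for any of these.

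Leaving out 1 array gave, for control days 2, 4, 5, 6, 8 and 10, 4 to 11, 6 to 12, 9 to 17, 3 to 8, 4 to 7 and 3 to 7 higher, and 11 to 22, 20 to 36, 26 to 34, 43 to 57, 45 to 52 and 43 to 50 lower. The day 6 step ran from 3 to 41 lower. Arm calls, in the order of the 7 days, ran from 0 to 4, 0 to 2, 1 to 3, 1 to 11, 2 to 8, 2 to 7 and 2 to 9. The arm average had 7 to 10 higher and 11 to 21 lower, and days 8 and 10 had 3 to 6 and 7 to 15. Cox6a2 at control day 10 ran from 0.44 to 0.58, Cox7a1 between the arms at day 10 from -1.35 to -1.01, and its change from day 2 from -0.83 to 0.042. For Cox8b the arm average ran from -0.27 to -0.12, days 8 and 10 from -0.32 to -0.24 and the change from day 2 from -0.80 to -0.53.

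Replicates of a number correlated across arms by 0.129, 0.683, 0.220, 0.117, 0.102 and 0.0986 at days 2 to 10. These were not all above 0.1, and the number was not taken to pair the arrays. All were positive, so some pairing may remain. At day 4, where the value was 0.683, the number also goes with the spike-in class in both arms. The replicate block is 1 term for the number over all days and does not model pairs within a day. With it, Cox6a2 differed between the arms at day 10 by -1.43 (adjusted p = 4.63e-05, limma). In that fit 52 genes were lower at control day 10, and 9 were higher and 15 lower in the arm average. The block changed no call that answers a comparison.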

Other observations

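Other cell types also differed between the arms on the arrays that gave the respiratory chain values. All 6 fibroblast markers tested, collagen genes among them, rose by control day 10 (median 5.98), and all 6 were higher in the Sox17 shRNA arm over days 8 and 10 (median 1.42). Of 4 blood markers, such as embryonic globins, all 4 were higher on average over days 4 to 10 (median 2.19). Of 7 visceral endoderm markers, which include Afp and Ttr, 4 were lower (median -0.89). All 10 pluripotency markers were lower at control day 10 (median -4.74), and 5 were higher and 1 lower between the arms. Of 5 endothelial markers 4 rose and 1 fell by control day 10, and 0 were called between the arms by limma (0 at an unadjusted p under 0.05). The part of these cell types in the values of the respiratory chain genes was not tested. Among all genes tested, 31.5% were higher and 40% lower at control day 10. Between the arms the shares were 8.39% and 8.17% over days 8 and 10, and 14.8% and 12.2% on average over days 4 to 10. The days compared differ between the marker lists, so the lists are not to be set side by side.

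The X chromosome moved in both arms alike: relative to other chromosomes, its genes changed from control day 0 by 0.42 in the control arm and 0.43 in the Sox17 shRNA arm at day 10.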
